A study of Rattus norvegicus with 6 samples.

Results

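The genes Bcr, Zwint, Slc16a9, Ccdc6, Ank3 and Arid5b lie along 1 stretch of rat chromosome 20 and were chosen by their kidney signals, which were higher in congenic than in S rats. They were found by their symbol in the array annotation, which gave 8 probe sets of 31042, 1 for each gene but 3 for Ank3. For each gene the probe set of highest mean signal over the 6 arrays is called the main one. All 6 main probe sets lay above the median signal and were among the 15521 tested, and the 1 member probe set that did not is a further one of Ank3. Because the difference between strains chose these genes, it is given here as a description and without a test.

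Kidneys of 2 inbred rat strains were compared, with 3 adult males each and 1 array per male. The S rat is the Dahl salt-sensitive rat (SS/Jr), which develops high blood pressure. The congenic rat, S.LEW(D1MCO4x1x3Bx1), carries a Lewis segment of chromosome 1 on that S background, so both groups share the S genome elsewhere by design. It is a single congenic line, and the sources used here give no diet, blood pressure or time of day. In a congenic line, a segment of a donor strain is bred onto a recipient strain by repeated backcrossing. Chromosome 20 is therefore not the chromosome that the strain's name marks as Lewis. Whole kidney is a mixture of tubule, glomerular, vascular and immune cells, and in such RNA more cells of a type and more RNA per cell cannot be told apart.

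The 6 genes do unrelated work. Bcr encodes a GTPase-activating protein for Rac that also carries a kinase and an exchange-factor domain, and it is known as a fusion partner of ABL1 in leukaemia. Ank3 encodes ankyrin-G, which ties membrane proteins such as ion channels and transporters to the spectrin skeleton. Slc16a9 is a member of the monocarboxylate transporter family and has been linked to carnitine transport. Zwint encodes a kinetochore protein that helps to bring the ZW10 complex to dividing chromosomes. Ccdc6 encodes a coiled-coil protein of the DNA damage response and is a fusion partner of RET in thyroid cancer. Arid5b encodes a DNA-binding protein of the ARID family that works with the demethylase PHF2.

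In gene order the 6 are not a closed row. From Bcr to Arid5b, the RefSeq gene table of assembly GRCr8 holds 24 protein-coding genes, of which 19 had a named probe set, so that 13 measured coding genes lie among the 6. Ccdc6 and Ank3 are next to each other, and 1 coding gene, Mrln, separates Slc16a9 from Ccdc6. Between Bcr and Zwint there are 4 coding genes, between Zwint and Slc16a9 there are 8, and between Ank3 and Arid5b there are 5. No genome build is stated for the array, so gene positions are stated by order alone.

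RefSeq promoter sequences on GRCr8, from 250 bases before to 50 after 1 annotated start per gene, were at hand for 4 of the 6 genes. They are shown because the question is whether these genes move together, and capitals mark each match to 7 short motifs on either strand. The Bcr window is chr20:13596284-13596583 and the Ccdc6 window chr20:18527178-18527477, both on the minus strand. The Ank3 window is chr20:18929128-18929427 on the minus strand, and the Arid5b window is chr20:20306464-20306763 on the plus strand.
Bcr: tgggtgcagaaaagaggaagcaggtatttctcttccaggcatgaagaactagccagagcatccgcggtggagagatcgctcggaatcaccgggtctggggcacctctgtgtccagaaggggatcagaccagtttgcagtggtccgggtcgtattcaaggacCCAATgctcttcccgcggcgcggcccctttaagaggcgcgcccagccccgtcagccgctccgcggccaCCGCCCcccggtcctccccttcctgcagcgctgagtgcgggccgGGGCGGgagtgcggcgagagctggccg
Ccdc6: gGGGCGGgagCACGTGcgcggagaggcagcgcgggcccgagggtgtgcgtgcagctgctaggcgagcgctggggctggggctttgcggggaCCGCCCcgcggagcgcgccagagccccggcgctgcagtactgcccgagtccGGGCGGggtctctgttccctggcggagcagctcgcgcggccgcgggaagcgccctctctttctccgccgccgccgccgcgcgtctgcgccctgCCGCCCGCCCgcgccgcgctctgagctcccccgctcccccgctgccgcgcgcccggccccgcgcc
Ank3: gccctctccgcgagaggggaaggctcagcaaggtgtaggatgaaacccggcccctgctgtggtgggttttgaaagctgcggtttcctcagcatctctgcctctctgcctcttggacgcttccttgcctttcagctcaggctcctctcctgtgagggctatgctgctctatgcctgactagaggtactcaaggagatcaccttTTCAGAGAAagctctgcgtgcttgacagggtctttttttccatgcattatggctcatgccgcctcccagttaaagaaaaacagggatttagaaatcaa
Arid5b: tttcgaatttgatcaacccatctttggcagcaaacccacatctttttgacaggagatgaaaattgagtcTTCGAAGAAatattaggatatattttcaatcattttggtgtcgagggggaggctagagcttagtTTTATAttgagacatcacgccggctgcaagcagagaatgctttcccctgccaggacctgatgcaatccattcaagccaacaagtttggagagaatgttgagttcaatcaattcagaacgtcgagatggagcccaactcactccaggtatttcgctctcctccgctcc
None of the 7 motifs was found in all 4 windows. The GC box GGGCGG occurred in Bcr and Ccdc6 and in 33.1% of all 33469 promoters, and the CCAAT box CCAAT in Bcr and in 37.5%. A STAT site, TTCNNNGAA, occurred in Ank3 and Arid5b against 8.87% of all promoters. The E-box CACGTG occurred in Ccdc6 against 6.42%, and the TATA box TATAAA in Arid5b against 14.2%. The last of these is on the strand opposite to the gene. The D-box TTATGTAA (0.893% of all promoters) and the cAMP site TGACGTCA (1.83%) had no match in the 4 windows. In Ccdc6 2 matches of the GC box overlap each other. The windows also differed in base composition, from 81.0% G and C in Ccdc6 and 66.0% in Bcr to 52.7% in Ank3 and 44.3% in Arid5b, where the median of all promoters was 51.7%. A match is a run of letters and does not show that a factor binds there.

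The arrays were alike in overall level. The median signal per array lay between 162 and 178, and the mean after trimming 2% at either end was 500.0 on each array. Values below are signals on the deposited linear scale as mean ± SD over 3 rats, and differences are congenic minus S in log2 with the standard error (SE) of a limma fit over all 31042 probe sets. Signals of different probe sets cannot be set against each other. At adjusted p 0.05, limma called 0 of the 15521 tested probe sets (0.0%). At unadjusted p 0.05 it called 1602 (10.3%), 4.72% higher and 5.61% lower. Each congenic rat lay above each S rat for 7.98% of them and below for 7.99%.

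By the choice of genes, the main probe set of all 6 read more in every congenic rat than in any S rat, beside the 7.98% of all tested probe sets, and nothing is read from that count. None of the 6 passed the adjusted threshold in limma. Their median log2 difference was 0.34, from 0.26 in Slc16a9 to 0.82 in Arid5b, where the median of all tested probe sets was -0.01. Only Arid5b reached a fold of 1.5, which 0.419% of the tested probe sets did in the upward direction.

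Among the genes of membrane and cell shape, Bcr (1373494_at) read 953, 951 and 831 in the S rats and 1098, 1189 and 1209 in the congenic rats. The S mean was 912 ± 70.1 and the congenic mean 1165 ± 59.0, a log2 difference of 0.36 (SE 0.08). The strains did not overlap, and S rat 3 was the low one among the S rats. The main Ank3 probe set (1370638_at) read 1617, 1886 and 1547 in the S rats and 1963, 2160 and 2196 in the congenic rats, so that S rat 2 came near congenic rat 1. Its means were 1683 ± 179 and 2106 ± 125, with a log2 difference of 0.33 (SE 0.09).

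The other 2 Ank3 probe sets did not share this separation. The second one (1371132_a_at), whose suffix marks probes that read several transcripts of 1 gene, gave 612, 776 and 892 in the S rats and 791, 724 and 815 in the congenic rats. All congenic values lay within the S range, and the log2 difference was 0.05 (SE 0.15). The third one (1381690_at) gave 66.8, 76.7 and 99.1 in the S rats and 144, 83.9 and 100.1 in the congenic rats. The strains overlapped here too, with a log2 difference of 0.42 (SE 0.32), and congenic rat 1 was the high one. Averaged over all its probe sets, Ank3 had a log2 difference of 0.26.

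Slc16a9 (1380465_at), the transporter, had the narrowest spread of the 6. It read 4613, 4225 and 4281 in the S rats and 5332, 5033 and 5314 in the congenic rats. The means were 4373 ± 210 and 5227 ± 168, with a log2 difference of 0.26 (SE 0.05). The lowest congenic value stood 420 signal units above the highest S value.

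Zwint (1370803_at), the kinetochore gene, read 4587, 4072 and 3801 in the S rats and 4669, 5619 and 6097 in the congenic rats. Congenic rat 1 was close to S rat 1, and the other 2 congenic rats were well above. The means were 4153 ± 399 and 5462 ± 727, with a log2 difference of 0.39 (SE 0.12). Ccdc6 (1389466_at), the DNA damage gene, read 7051, 5966 and 5480 in the S rats and 7316, 8132 and 7058 in the congenic rats. Congenic rat 3 exceeded S rat 1 by 7.50 signal units only, and after quantile normalisation or cyclic loess the strains overlapped for this gene. Its means were 6166 ± 804 and 7502 ± 561, with a log2 difference of 0.29 (SE 0.11).

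Arid5b (1382312_at), the chromatin gene, had the widest difference and the widest spread of the 6. It read 312, 189 and 202 in the S rats and 368, 387 and 458 in the congenic rats. The means were 235 ± 67.6 and 404 ± 47.2, with a log2 difference of 0.82 (SE 0.22). S rat 1 was the S rat nearest to the congenic ones, and without it the difference was 1.04.

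**Figure D1:**
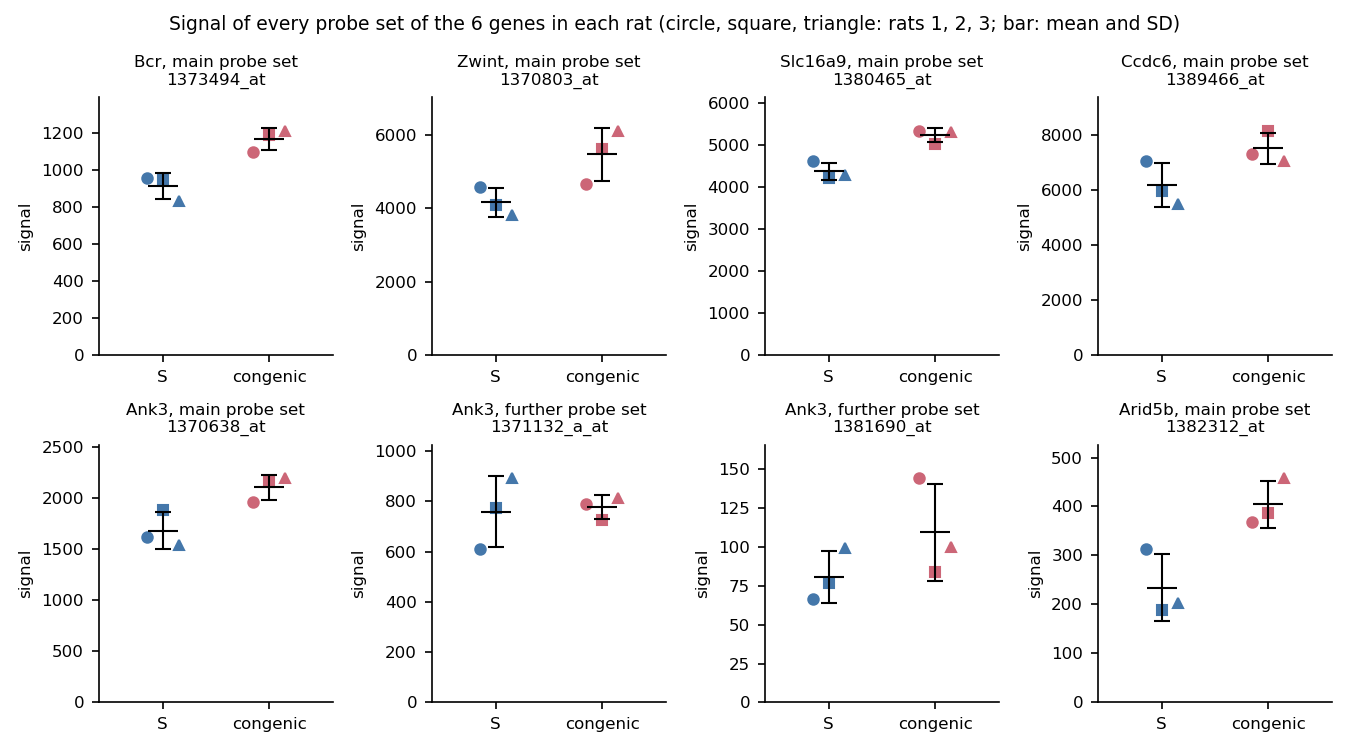
Signal on a linear axis from 0 for all 8 probe sets, with 1 point per rat (circle, square and triangle for rats 1, 2 and 3; S blue, congenic red) and bars for the mean and SD over 3 rats. The 6 main probe sets do not overlap between strains, with a gap of 7.50 signal units in Ccdc6 and 420 in Slc16a9, whereas the 2 further Ank3 probe sets overlap.

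Whether the 6 genes moved together in each kidney was asked within the strains, by taking the log2 signal of each rat minus the mean of its own strain. This removes the strain difference that chose the genes. S rat 1 lay above its strain mean for 5 of the 6 genes, with a mean deviation of 0.15, and was the highest S rat for 5. S rat 3 lay above it for 0 of 6, with a mean deviation of -0.12, and was the lowest S rat for 4. S rat 2 had a mean deviation of -0.03, with 2 genes above. For comparison, 35.3% of all tested probe sets were highest in S rat 1 and 31.9% were lowest in S rat 3.

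Congenic rat 1 lay below its strain mean for all but 1 gene, Slc16a9, with a mean deviation of -0.09, and was the lowest for 4. Congenic rat 3 lay above for 5, with a mean deviation of 0.07, and was the highest for 4. Ccdc6 was the exception in congenic rat 3, at -0.09, and was highest in congenic rat 2, at 0.12. Over all tested probe sets the median deviation of each rat lay between -6.58e-04 and 0.00794, on arrays that had been scaled to 1 trimmed mean before deposit. The part of array level in these shifts was not tested.

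Counted by pairs, 2 members put 2 rats of 1 strain in the same order in 59 of 90 cases (15 member pairs and 6 rat pairs), or 65.6%, where all tested probe sets gave 50.0%. The share was 71.1% within S (32 of 45) and 60.0% within the congenic strain (27 of 45). With arrays centred on the median the congenic share was 53.3%, beside 52.9% over all tested probe sets. Bcr and Zwint ordered the rats alike in all 6 pairs, S rat 1 over 2 over 3 and congenic rat 3 over 2 over 1. Bcr and Zwint each shared 5 of 6 with Ank3 and 5 of 6 with Arid5b. Slc16a9 and Ank3 shared 2 of 6, and the adjacent Ccdc6 and Ank3 shared 3. With 3 rats a strain these counts allow no test, and pairs that share a gene or a rat are not independent.

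**Figure D2:**
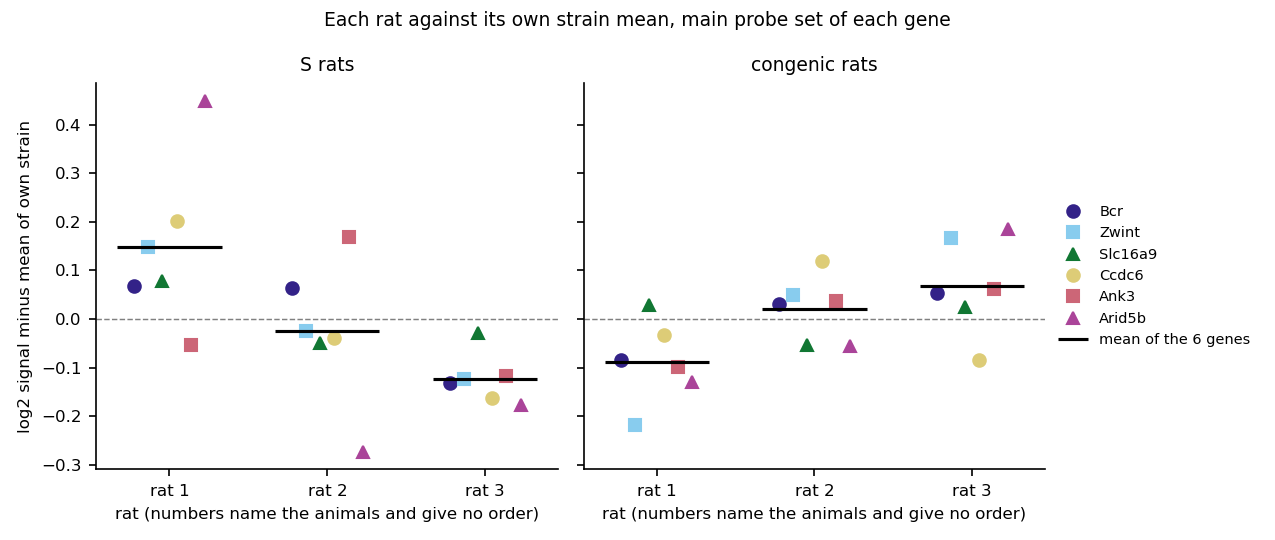
Log2 signal of each main probe set minus the mean of the rat's own strain, for 3 S rats (left) and 3 congenic rats (right); black bars are the mean of the 6 genes and the dashed line is the strain mean. The bars sit at 0.15, -0.03 and -0.12 in S rats 1, 2 and 3 and at -0.09, 0.02 and 0.07 in congenic rats 1, 2 and 3. Slc16a9, Ccdc6, Ank3 and Arid5b each depart from the order of these bars in at least 1 strain.

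The genes that lie among the 6 were then examined. Since the 6 were taken out of this stretch for their higher values, the genes left in it are not an unselected sample. Of the 13 coding genes measured there, 7 were bright enough to be tested, and 6 of these had a log2 difference above 0. Their median was 0.03, from -0.05 to 0.29, and the median of all 9334 tested genes was 0.01. In none of the 7 were the strains apart, where each congenic rat lay above each S rat for 9.59% of all tested genes. Rhobtb1, between Ank3 and Arid5b, was the 1 with unadjusted p under 0.05, which 5.55% of tested genes reached in the upward direction. It read 1621, 1570 and 1879 in the S rats and 1847, 2245 and 1962 in the congenic rats, so that S rat 3 exceeded congenic rat 1. Its means were 1690 ± 165 and 2018 ± 205, with adjusted p = 0.416 in limma.

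Of the tested genes among the 6, those between Zwint and Slc16a9 had differences near 0. Next to Zwint, Ipmk, an inositol polyphosphate kinase gene, read 2972 ± 130 in S and 3123 ± 267 in congenic kidneys. Further along, Cisd1, an iron-sulphur protein of the outer mitochondrial membrane, read 19325 ± 1380 and 19587 ± 500.4. Also there, Tfam, the transcription factor of mitochondrial DNA, read 1001 ± 74.9 and 968 ± 90.8. Ube2d1, a ubiquitin-conjugating enzyme gene, read 177 ± 50.3 and 179 ± 54.2, and Cdk1, the mitotic kinase gene between Ank3 and Arid5b, read 402 ± 111 and 399 ± 16.4. The means of each of these 5 genes differed by less than the larger of their SDs, and the smallest adjusted p in limma was that of Ipmk, 0.814. Before Arid5b, Cabcoco1 read 390 ± 95.4 and 469 ± 44.3, with overlap.

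On the outer side of Bcr, Specc1l, a cytoskeletal cross-linking gene, read 603, 608 and 498 in the S rats and 646, 660 and 697 in the congenic rats. Its strains did not overlap, and limma gave adjusted p = 0.548. Rab36, which follows Bcr, read 19.4 ± 11.2 and 54.1 ± 56.8, and Pcdh15, which precedes Zwint, read 9.26 ± 6.88 and 16.2 ± 2.74. Gnaz, between Rab36 and Pcdh15, went the other way from the 6 genes, with strains apart. It read 94.5, 54.0 and 70.3 in the S rats and 7.56, 50.8 and 44.6 in the congenic rats. Its log2 difference was -1.23 (SE 0.63). Fam13c, before Slc16a9, read 153 ± 3.36 and 157 ± 22.0, and Mrln, after it, read 99.3 ± 16.4 and 78.7 ± 29.6. The uncharacterised gene LOC102553944 follows Ank3 and read 19.1 ± 12.2 and 15.98 ± 10.4. Zfp365 follows Arid5b and read 21.5 ± 10.4 and 23.4 ± 31.3. These 6 and Gnaz were too dim to be tested.

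Over the 57 tested non-members among the 6 genes and the 25 tested genes on either side, 36 had a log2 difference above 0 and 21 below. The median was 0.03, beside 0.01 over all tested genes. In limma 0 passed adjusted p 0.05. At unadjusted p 0.05 there were 3 higher and 3 lower, where 5.55% and 4.84% of all tested genes reached it. On the Bcr side 18 of 25 were above 0, and beyond Arid5b 12 of 25 were. Of the 57, 8 had each congenic rat above each S rat, or 14.0%, and 2 had each below, where 9.59% and 7.45% of all tested genes did.

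The 3 higher ones were Rhobtb1, described above, and Mif and Slc19a1, whose strains did not overlap. Mif, a cytokine gene that counters glucocorticoids, read 8467 ± 209 in S and 9927 ± 226 in congenic kidneys (limma, adjusted p = 0.291). Slc19a1, the reduced folate carrier, read 2020 ± 45.9 and 2347 ± 43.6 (limma, adjusted p = 0.385). The 3 lower ones lie beyond Arid5b. Hnrnph3, an RNA-binding protein gene, read 644 ± 128 and 480 ± 70.3, Ranbp2, a nuclear pore gene, read 1114 ± 209 and 867 ± 109, and Herc4, a ubiquitin ligase gene, read 1279 ± 95.8 and 1075 ± 65.3. Their adjusted p in limma was 0.414, 0.420 and 0.421.

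**Figure D3:**
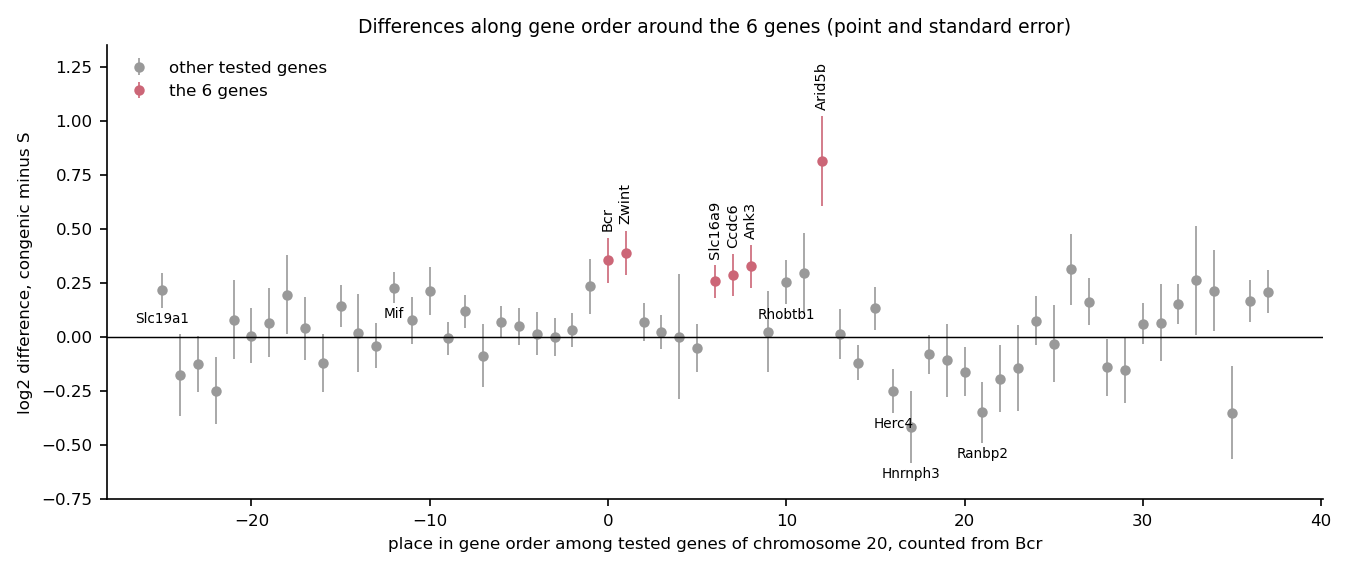
Log2 difference, congenic minus S, with its standard error from the limma fit of tested probe sets, against place in gene order among tested genes of chromosome 20 counted from Bcr. The 6 genes (red) stand at 0.26 to 0.82, while the 7 tested genes among them (grey, between red points) run from -0.05 to 0.29; grey genes with unadjusted p under 0.05 carry their names.

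Chromosome 20 as a whole lay within the range of the others. Its 210 tested genes outside this stretch had a median log2 difference of 0.01, and in 10.5% each congenic rat lay above each S rat. Over all 267 tested non-members of the chromosome that share was 11.2%, which was rank 4 of 21 chromosomes, whose shares ran from 6.64% to 12.9%. By median log2 difference, 0.01, chromosome 20 had rank 8, and the medians ran from -0.02 to 0.03.

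Other genes also lay near the mean profile of the 6 genes over the 6 rats. Likeness was measured as the root mean square distance, in log2, between a gene's profile, centred on its own mean, and the mean profile of the 6 main probe sets. That profile holds the strain difference that chose the genes, so likeness to it is a description of these values. The 6 genes did not all lie close to their own mean profile. Bcr, at 0.06, had 1 non-member nearer than itself, Zwint 6, Ccdc6 58, Slc16a9 81 and Ank3 179. Arid5b, at 0.27, had 4986 of the 9328 nearer. The nearest of 9328 tested non-members was Xpnpep1, an aminopeptidase gene of chromosome 1, at 0.05, with 3155, 3120 and 2857 in the S rats and 3651, 4050 and 4198 in the congenic rats. It was followed by Psme3ip1 (chromosome 19) at 0.06, Ciz1 (chromosome 3) at 0.06 and Phrf1 (chromosome 1) at 0.07. Gja1, the connexin 43 gene, also on chromosome 20 but outside the stretch, had 0.07, and Cop1, a ubiquitin ligase gene of chromosome 13, had 0.07. Of the 100 nearest non-members, 6 (6%) lay on chromosome 20, beside 2.86% of all tested non-members. This difference in share was not tested.

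Genes that work with the 6 proteins, belong to their families or share their fields of work were also counted, taking for each gene the brightest tested probe set. Limma called 0 of them at adjusted p 0.05, and at unadjusted p 0.05 there were 5 higher and 4 lower over the 6 lists. Over all tested genes 5.55% were higher and 4.84% lower at that threshold, and 52.4% had a log2 difference above 0. Of 24 listed kinetochore genes, which act with Zwint, 11 were tested, 7 above 0 and 4 below, with a median log2 difference of 0.03. The 3 genes of smallest p were Bub3, a spindle checkpoint gene with a log2 difference of 0.14, Spc25 of the NDC80 complex with 0.32, and Zw10 with 0.10. None of the 11 reached unadjusted p 0.05.

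Of 20 genes of the membrane skeleton, to which Ank3 belongs, 9 were tested and 8 were above 0, with a median of 0.07. Add1, the alpha-adducin gene, had a log2 difference of 0.24 and Sptan1, the alpha-spectrin gene, had 0.17, and Epb41l3 had 0.07. Add1 and Sptan1 had unadjusted p under 0.05 in limma and strains apart, as 9.59% of all tested genes had in the upward direction for the latter. Of 23 genes of the SLC16 family and of carnitine handling, around Slc16a9, 15 were tested, 9 above 0 and 6 below, with a median of 0.00281. Here Slc16a1, the lactate and pyruvate transporter MCT1, had a log2 difference of -0.39, while Slc16a12 had 0.22 and Crat, carnitine acetyltransferase, had 0.21.

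Most tested genes of the ARID family and around PHF2 lay below 0, unlike Arid5b. Of 13 tested, 11 were below 0 and 2 above, with a median of -0.11, where 52.4% of all tested genes were above 0. Arid1b and Arid1a, DNA-binding subunits of a SWI/SNF remodelling complex, had log2 differences of -0.35 and -0.22, and Kdm5c, a demethylase, had -0.38. Of 22 small GTPases and regulators around Bcr, 19 were tested, 12 above 0, with a median of 0.03. Rhoa had a log2 difference of -0.15, Rac3 -0.31 and Cdc42 0.10. Of 17 RET-related, 14-3-3 and DNA damage genes listed around Ccdc6, 12 were tested, 6 on either side of 0. Ppp4r3a, a phosphatase subunit gene, had a log2 difference of -0.20, Creb1 -0.31 and the 14-3-3 gene Ywhah 0.14.

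The labelled tissue was checked against defining markers, and those of kidney tubules were above the median signal in mean, except Pvalb of the distal tubule. The summed signal of 8 proximal tubule markers was 89128 to 97801 in S and 98330 to 104633 in congenic kidneys. The sum was thus higher in the congenic strain, as the 6 genes were, without overlap. Of these 8, 6 were higher in the congenic mean, and Slc13a1 (log2 difference 0.30), Hnf4a (0.23) and Slc22a6 (0.14) had strains apart. Cubn (-0.02) and Aqp1 (-0.09) were below 0. The part of proximal tubule content in the values of the 6 genes was not tested. The sum of 4 measured endothelial markers was 5592 to 6246 in S and 5411 to 5588 in congenic kidneys, also without overlap, although Pecam1 (0.15) was higher in each congenic rat, Kdr had 0.00215, and Emcn (-0.13) and Ehd3 (-0.42) were below 0.

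A sum follows its brightest genes, so the mean log2 level of each list, relative to all 6 rats, was read beside it. For the 6 loop of Henle and distal tubule markers this level was 0.11, 0.14 and 0.04 in S rats 1, 2 and 3 and -0.06, -0.11 and -0.13 in congenic rats 1, 2 and 3, without overlap. Of these 6, 5 were lower in the congenic mean, among them Slc12a1 (log2 difference -0.26), Slc12a3 (-0.15) and Cldn10 (-0.22), the last with strains apart, while Umod, which makes up most of the sum, had 0.25. For the 5 stromal and smooth muscle markers it was 0.23, 0.05 and -0.03 in the S rats and -0.05, -0.09 and -0.10 in the congenic rats, again without overlap. It was 0.063, 0.0196 and 0.065 in S and 0.0086, 0.0027 and -0.16 in congenic rats for 4 endothelial markers, also without overlap. These mean levels thus went opposite to the 6 genes. The proximal tubule level was -0.04, -0.12 and -0.03 in S and 0.03, 0.09 and 0.07 in congenic rats, higher without overlap like the 6 genes. Within S it was highest in rat 3, the lowest S rat for 4 of the 6 genes. The part of these levels was not tested either. The loop of Henle and distal tubule level leans on Pvalb, whose log2 difference of -0.77 was the widest of its list. Pvalb read 29.1, 36.4 and 4.36 in the S rats and 17.2, 11.1 and 9.62 in the congenic rats, around the floor of 12.3. The lack of overlap in that level depends on this dim marker and is not read as a difference of the list. For the 5 markers of dividing cells, which concern Zwint, the sum was 1355 to 2067 in S and 1503 to 1931 in congenic kidneys. Their mean log2 level was 0.33, -0.23 and -0.12 in S rats 1, 2 and 3 and -0.09, 0.27 and -0.15 in congenic rats 1, 2 and 3. S rat 1 was thus the highest S rat in this level, as it was for 5 of the 6 genes. Of the single markers, Mki67 was not highest there, with 260 in S rat 1 and 332 in S rat 3. In the congenic strain the level was highest in rat 2 and lowest in rat 3, whereas Zwint was highest in rat 3, 0.17 above its strain mean. The sums overlapped between strains for the loop of Henle and distal tubule markers (42718 to 50510 in S, 46303 to 52150 in congenic), 6 collecting duct markers (18087 to 20126 and 18375 to 20224) and 4 podocyte markers (3226 to 3637 and 3366 to 3654). They also did for the stromal and smooth muscle markers (12725 to 15115 and 12259 to 13463), 5 immune markers (10693 to 12531 and 11201 to 12772) and 2 blood genes (15467 to 22013 and 9923 to 16814). For 3 adrenal genes the sums were 398 to 462 and 395 to 520.0, and for 4 adipocyte genes 1751 to 2382 and 1386 to 2828. No marker lay at or below the floor of 12.3 on all arrays.

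**Figure D4:**
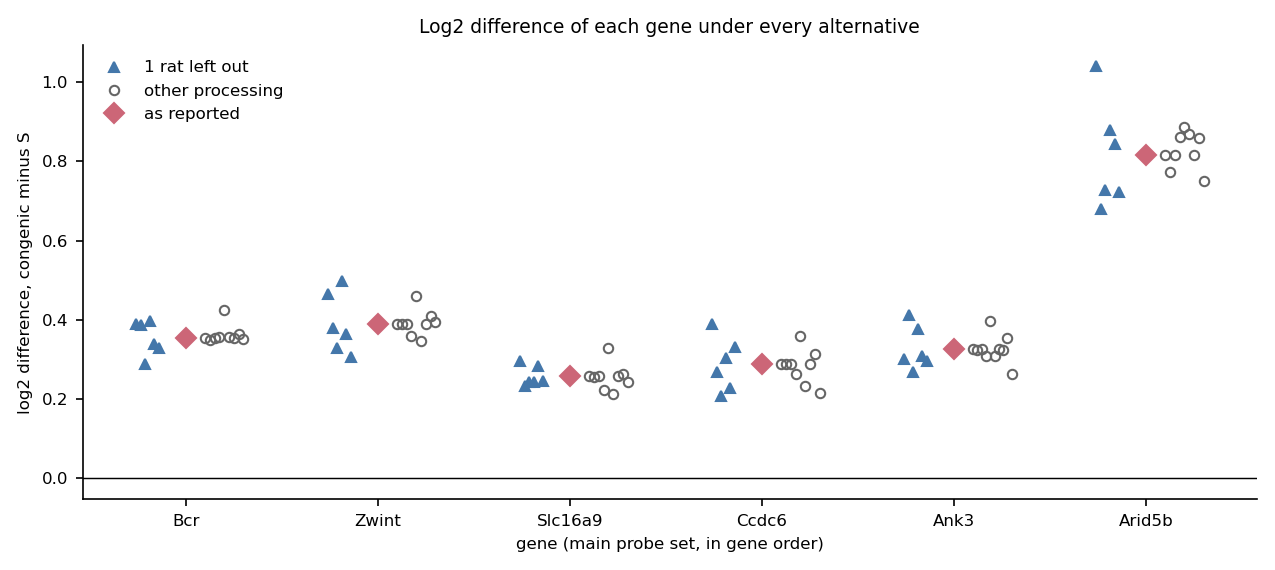
Log2 difference, congenic minus S, of each main probe set as reported (diamond), with 1 rat left out (triangles) and under other processing (open circles). All points lie above 0; Arid5b runs from 0.68 to 1.04 with 1 rat left out, and Slc16a9 from 0.23 to 0.30.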

How the data were processed

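Kidney RNA of 6 rats was hybridised to Affymetrix 1-colour arrays. The authors deposited 1 linear intensity per probe set and array, made by GCOS 1.4 per the submitters' processing notes. The sources used here do not state its settings or detection calls. No further normalisation was applied. The 57 control probe sets were left out, signals under 12.3 (the 10th percentile) were set to that value before taking log2. Probe sets above the median mean were tested with limma 3.58.1 in R 4.3.3 (lmFit, eBayes with trend), with Benjamini-Hochberg adjustment. Standard errors of the 6 genes come from a fit of all probe sets; among tested probe sets alone that of Bcr was 0.11 in place of 0.08. Of the probe sets, 20826 had 1 symbol, 436 several and 9780 none, and 20758 matched the GRCr8 gene table by Entrez identifier.

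The 6 genes and all lists were chosen with earlier results of these data known. Named are the 6 genes, their nearest measured genes, other genes of the stretch with unadjusted p under 0.05, the 6 nearest profiles and 3 genes per partner list. Cisd1, Tfam, Ube2d1 and Cdk1 were added after their values were seen, so that each tested gene among the 6 is named, and so were single loop of Henle and distal tubule markers. The number of arrays limits the precision, and depth has no meaning here. The procedure was tested on simulated data. The labels give each array its own animal. Figures used matplotlib 3.10.9.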

Additional observations from a re-analysis of the deposited data

How the results depend on the processing

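The differences of the 6 genes stayed above 0 under every processing alternative run and with any 1 rat left out. Their median log2 difference ran from 0.32 to 0.41 over the processing alternatives (0.28 to 0.39 with 1 rat left out). Calls at adjusted p 0.05 numbered 0 except 9 with arrays centred on the median, and 0 to 42 with 1 rat left out: 42 without S rat 1, 6 without congenic rat 1 and 3 without congenic rat 3. Centring moved the median of all tested probe sets by 0.07, from -0.01 to 0.06, and gave Slc16a9 0.33. For the 57 surrounding non-members, the median was 0.10 with centring and 0.00653 with a block for title numbers under 10 against 10 and over, and 0.00580 to 0.0586 with 1 rat left out, 0.0586 without S rat 1 and 0.00580 without S rat 2. The number at unadjusted p 0.05 was 6 as reported, 11 with centring, 2 without the variance trend, 1 among the genes between Bcr and Arid5b alone, and 3 to 7 with 1 rat left out, 3 without S rat 3. The causes were not tested, apart from the smaller set. The share of rat pairs ordered alike, whose alternatives were chosen after seeing the data, was 62.2% with centring and 65.6% after quantile normalisation or cyclic loess. No paired analysis was possible because the labels give the strains no shared replicate numbers, and the numbers that open the titles are each used once. Signal over background limits the dim neighbours, since detection calls were not used here.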
